A study of Mus musculus with 2 samples.

Results

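The mitotic genes described here are 35 genes whose products drive or carry out cell division, from the cyclins and kinases that start mitosis to the proteins that separate the daughter cells. They were chosen by gene symbol, with earlier results of these data known, and the rule itself uses no measured value. Of the 35, 34 had at least 1 array probe set that named them alone, and all 34 gave signal above the array floor in both groups. Ccnb1, which encodes a partner cyclin of Cdk1, had no probe set listed for it in the annotation and was not analysed here. The array named 18193 genes in all, of which 10665 lay above the floor on both arrays.

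The cells came from mouse hearts at embryonic day 12.5 and were sorted by flow cytometry as live cells of the Tie2Cre lineage that lacked the blood markers CD41, CD45 and Ter119. The Tie2 promoter drives Cre in endothelium, endocardium and blood, and the recombined loxP alleles pass to all daughter cells, so the sorted cells include endocardium, vessel endothelium and cushion mesenchyme. The control group, with genotype Tie2Cre;Tbx20 +/loxP, kept 1 working Tbx20 allele where Cre acted, and the mutant group, labelled both Tie2Cre;Tbx20 loxP/- and Tie2Cre;Tbx20 -/loxP, kept none. Both groups carry Tie2Cre and a floxed allele, and the mutant embryos carry the null allele in every cell. There was 1 array per genotype. Whether embryos were pooled is not given in the sources used here. With no replicate, a difference between genotypes cannot be told apart from a difference between the preparations, and no p-value was computed. Values describe these 2 arrays.

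As background, entry into mitosis is set by Cdk1 bound to cyclins A and B. The Aurora and Polo-like kinases then build the spindle, the kinetochore couples chromosomes to microtubules, and the spindle checkpoint holds back the anaphase-promoting complex until all chromosomes are attached. Most of these genes are transcribed in G2 and mitosis, and many are held back in quiescent cells by a repressor complex that binds a promoter element called CHR, often with CCAAT boxes upstream of it. Dividing endocardial, endothelial and cushion cells of the embryonic heart all use them, so their summed RNA in a sorted population follows both the share of dividing cells and the RNA per cell. In bulk samples these cannot be told apart.

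The promoters of the list carried these elements often, and 6 are shown because they belong to the members with the highest ratios or hold both elements close to the start. RefSeq promoters on GRCm38.p6, from 250 bases before to 50 bases after each annotated start, were available for 30 of the 35 genes. The letters TTTGAA, searched on both strands, stand for the CHR, and CCAAT, also searched on both strands, for the CCAAT box. These letter strings do not contain each other. Each line gives the 110 bases before the start, 5′ to 3′ on the strand of the gene, with matches to either motif in capitals. A match on the opposite strand reads TTCAAA or ATTGG.
Plk1 (chr7:122159325-122159434, + strand): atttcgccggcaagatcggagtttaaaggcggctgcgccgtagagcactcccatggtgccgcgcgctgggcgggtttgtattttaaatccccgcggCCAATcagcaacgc
Cenpe (chr3:135212453-135212562, + strand): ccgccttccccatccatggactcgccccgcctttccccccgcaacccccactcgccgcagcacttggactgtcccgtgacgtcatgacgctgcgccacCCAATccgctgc
Cdk1 (chr10:69352913-69353022, - strand): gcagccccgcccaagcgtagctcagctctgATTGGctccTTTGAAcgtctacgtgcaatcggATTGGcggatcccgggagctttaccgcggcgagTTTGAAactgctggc
Cdc20 (chr4:118437344-118437453, - strand): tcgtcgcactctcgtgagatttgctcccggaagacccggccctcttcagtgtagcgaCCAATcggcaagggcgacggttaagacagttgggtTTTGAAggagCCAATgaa
Ube2c (chr2:164769819-164769928, + strand): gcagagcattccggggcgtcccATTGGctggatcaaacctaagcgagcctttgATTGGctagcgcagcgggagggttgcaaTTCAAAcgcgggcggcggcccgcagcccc
Kif11 (chr19:37376272-37376381, + strand): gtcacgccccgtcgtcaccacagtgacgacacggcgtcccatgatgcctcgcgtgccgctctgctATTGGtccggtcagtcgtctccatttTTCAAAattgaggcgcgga

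The CHR letters stood in the promoter windows of 23 of the 30 members, or 76.7%, against 20.2% of all 27025 genes in the promoter table. CCAAT stood in 23 members, also 76.7%, against 41.1% of all genes, and both motifs together in 20 members (66.7%) against 7.97%. The CHR matches lay near the start, at a median position of 3 with the start base counted as 1, and the CCAAT matches had a median position of -68. The positions overlapped: in Cdc20 a CCAAT match lies between the CHR match and the start, and Cdca8 has one after the start. In Plk1, which has no CHR match in the bases shown, the match began at position 31. No CHR match was found in the windows of Cenpe, Bub1, Birc5, Nuf2, Nusap1, Mad2l1 and Ccnb1. Among 63 promoters of other mitotic genes, CHR was found in 35 (55.6%), CCAAT in 44 (69.8%) and both in 26 (41.3%). Among genes of DNA replication and S phase, the other part of the cell cycle program, CHR was found in 3 of 24 promoters (12.5%) and CCAAT in 16 (66.7%). A match is only a run of letters and does not show that a factor binds there.

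**Figure D1:**
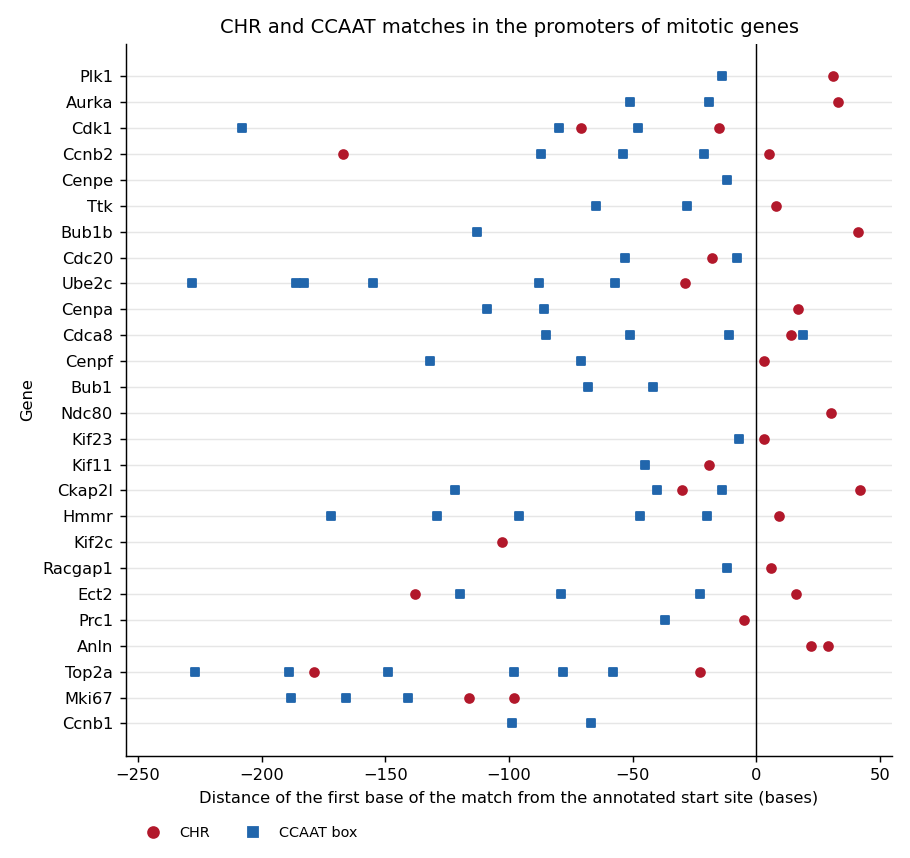
Positions of CHR (TTTGAA, red circles) and CCAAT (blue squares) matches on either strand in the promoters of mitotic genes with at least 1 match. The horizontal axis is the distance in bases of the first base of the match from the annotated start site. For Ect2 and Prc1, which have 2 listed starts, 1 is drawn. The median position is 3 for CHR and -68 for CCAAT, and the positions of both motifs overlap.

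Before the mitotic genes are described, the arrays need a short account. The deposited values are MAS5 signals, a linear intensity per probe set scaled to the same trimmed mean on both arrays. Where several probe sets named a gene alone, the brightest by mean log2 signal over both arrays was used, and the gene counts as measured where it exceeds each array's median, 91.3 in the control and 82.4 in the mutant. Tbx20, the targeted gene, gave signal on all 3 of its probe sets on both arrays, and the mutant signals were 84.0%, 85.9% and 60.2% of the control ones. Which exons the floxed allele loses is not in the labels, so whether any probe set tests the deletion is unknown. The log2 ratio, mutant over control throughout, had a median of -0.01 over all measured genes and an SD of 0.38. All 13 endothelial markers looked up were measured, among them Cdh5, which encodes VE-cadherin, read at 10886 and 10975. Of 9 leukocyte markers, 6 lay under the floor on both arrays, Ptprc (CD45) among them. Of the rest, Cd68 was above it on both arrays (93.8 and 162). Csf1r (144 and 80.6) and Cx3cr1 (226 and 47.8) were above it on the control array only.

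Most mitotic genes were slightly higher in the mutant array. Of the 34 measured members, 25 (73.5%) were higher and 9 were lower, where 49.0% of all measured genes were higher. The median log2 ratio of the members was 0.17 (SD 0.33 over members), against -0.01 for all genes. At least 2-fold higher were 2 members, Plk1 and Cenpe, against 0.647% of all genes, and 0 members were at least 2-fold lower, against 1.46% of all genes. Of the members, 21 had a log2 ratio between -0.25 and 0.25, 10 stood from 0.25 to 0.5, 2 above that, and 1, Anln, under -0.25. The signals of the 34 genes summed to 68045 on the control array and 75270 on the mutant array. No member was near the floor, with the lowest signals at 397 in the control (Foxm1) and 308 in the mutant (Anln).

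**Figure D2:**
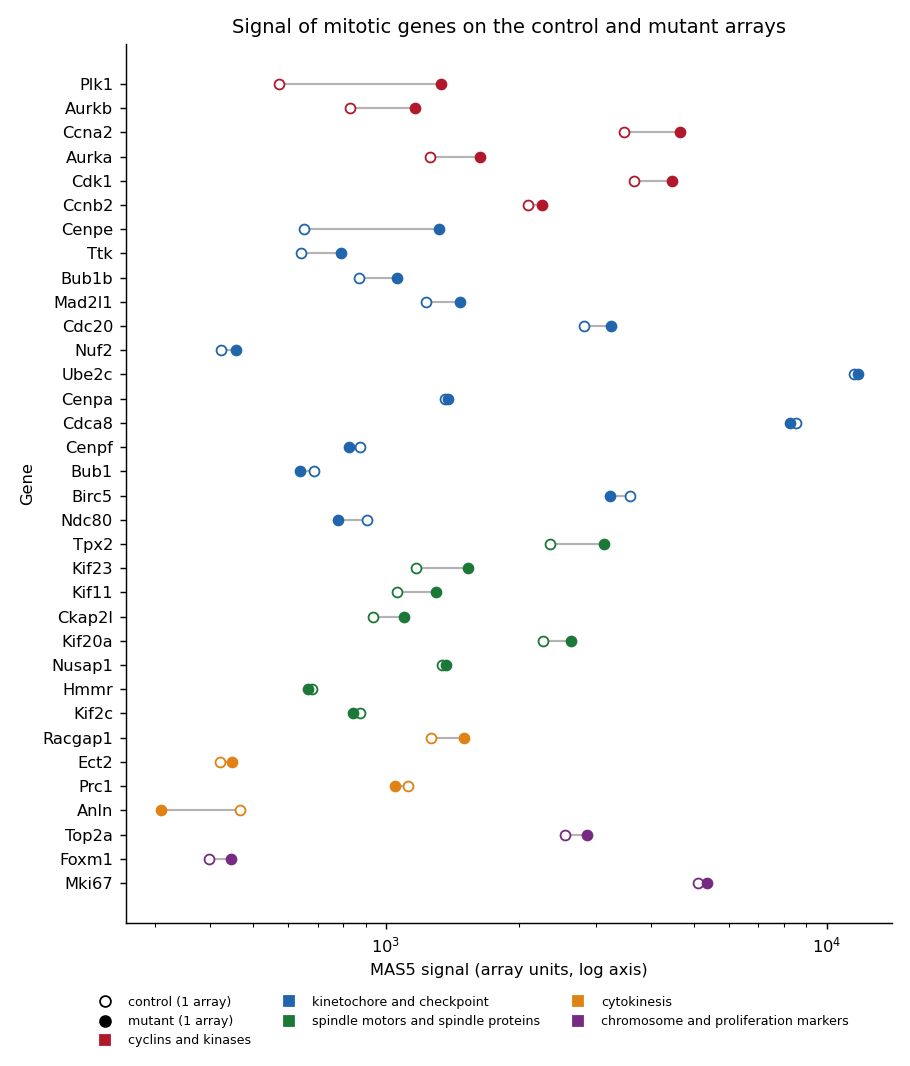
MAS5 signal on a log axis of each measured mitotic gene in the control (open circle) and mutant array (filled circle), 1 array each, with genes grouped and coloured by role and ordered by ratio within each group. All 6 measured genes of the group of cyclins and kinases have the mutant to the right of the control, while Anln and 8 other genes have it to the left.

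In the group of cyclins and kinases all 6 measured genes were higher in the mutant, where 49.0% of all measured genes were. Their median log2 ratio was 0.40. Other kinases of the list, among them Bub1 (-0.11) and Ttk (0.30), were placed with the kinetochore and checkpoint genes. Plk1, the Polo-like kinase of centrosome maturation, spindle assembly and mitotic exit, had a signal of 572 on the control array and 1337 on the mutant array, 2.34-fold higher. Its log2 ratio of 1.22 was the 14th highest of the 10665 measured genes, and it rests on 1 probe set. Aurkb, the kinase of the chromosomal passenger complex, read 830 and 1163 (log2 ratio 0.49), although its second probe set was at 0.03. Both Aurkb probe sets carry suffixes for probes that other transcripts may share. The gene values of Cdc20, Cdca8, Kif2c, Prc1 and Foxm1 also come from probe sets with such suffixes.

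The cyclin genes differed less. Ccna2, the cyclin A of S phase and early mitosis, read 3478 and 4639 (0.42), with its other probe set, at 1410 and 1573, at 0.16. Ccnb2, a B-type cyclin, read 2102 and 2267 (0.11), the lowest ratio in this group. Cdk1, the kinase bound by these cyclins, read 3653 and 4453 (0.29). Aurka, the Aurora kinase of the centrosome and spindle poles, read 1259 and 1635 (0.38). The order from Plk1 at the top to Ccnb2 at the bottom has no replicate behind it.

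Kinetochore and checkpoint genes were split, with 8 of 13 higher and a median log2 ratio of 0.02. That median moved with the processing, to 0.09 after quantile normalization, 0.10 after loess, 0.11 with the median over probe sets and 0.29 with unsuffixed probe sets. Cenpe, the kinesin that moves chromosomes along microtubules from the kinetochore, read 651 and 1322 on its brighter probe set, 2.03-fold higher. Its other probe set read 553 and 565, a log2 ratio of 0.03. The 2 probe sets of Cenpe thus disagree, and their median was 0.53. After quantile normalization and loess the brighter one stood at 0.99 and 0.98, just under 2-fold.

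Of the checkpoint genes Ttk, Bub1b, Mad2l1 and Bub1 and their target Cdc20, 4 of 5 were higher. Ttk, the Mps1 kinase at the head of the checkpoint, read 642 and 792 (0.30), Bub1b, which encodes BubR1, read 868 and 1060 (0.29), and Mad2l1, which encodes Mad2, read 1232 and 1476 (0.26). Cdc20, the activator of the anaphase-promoting complex that Mad2 and BubR1 hold back, was at 0.20, with its 3 probe sets at 0.11 to 0.37. Bub1, the kinase that brings other checkpoint proteins to the kinetochore, read 689 and 639 (-0.11). Ube2c, the ubiquitin-conjugating enzyme that works with the same complex, was at nearly the same level on both arrays, 11562 and 11758 (0.02).

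The other genes of this group were Ndc80, Nuf2, Cenpa, Cenpf, Birc5 and Cdca8. Ndc80 and Nuf2 encode partner subunits of the complex that binds microtubules. They went opposite ways, Ndc80 reading 906 and 779 (-0.22) and Nuf2 423 and 456 (0.11). Cenpa, the histone variant that marks centromeres, was at 0.02, with a dimmer probe set at 0.35. Cenpf, a large protein of the outer kinetochore, was at -0.08, and its other measured probe set at 0.12. Birc5 and Cdca8 encode survivin and borealin, which hold Aurora B at the centromere. Birc5 read 3586 and 3226 (-0.15) and Cdca8 8509 and 8281 (-0.04), while their partner Aurkb was higher on its brighter probe set. The dimmest Cdca8 probe set, at 280 and 423, was at 0.59, against -0.18 for the middle one.

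Spindle motors and spindle proteins were mostly higher, 6 of 8, with a median log2 ratio of 0.22. Tpx2, which activates Aurora A and nucleates microtubules near chromosomes, was the highest at 0.40, reading 2358 and 3121. Its second measured probe set, at 619 and 776, was at 0.33. Kif23, the motor of the centralspindlin complex, read 1173 and 1538 (0.39), and its other measured probe set 980 and 1838 (0.91). Both genes thus had every measured probe set higher in the mutant.

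Of the other motors, Kif11, the kinesin that pushes spindle poles apart, was at 0.29, with other probe sets at 0.18 and -0.06. Kif20a, a motor of the central spindle, was at 0.20. Kif2c, a kinesin that shortens microtubules at kinetochores, was the lowest of the group at -0.05, reading 872 and 841 on a probe set whose suffix marks probes that may cross-hybridise. Its other 2 measured probe sets were at 0.79 and 0.65, so the sign for Kif2c depends on the probe set. Ckap2l, a spindle protein, was at 0.23 and 0.84 on its 2 probe sets. Nusap1, which bundles spindle microtubules, was at 0.03 and 0.34. Hmmr, a spindle protein also known as a hyaluronan receptor, was at -0.03, with its other 3 measured probe sets from -0.05 to 0.35.

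Genes of cytokinesis did not share a direction, with 2 of 4 higher and a median log2 ratio of -0.005. Anln, which encodes the actin-binding anillin of the contractile ring, read 467 and 308, 1.51-fold lower in the mutant (log2 ratio -0.60). Its second probe set, at 136 and 82.9, was lower too (-0.71), although its mutant signal was close to the floor of 82.4. Anln was the only member with several measured probe sets that were all lower, and the lowest member. Racgap1, the centralspindlin partner of Kif23, read 1268 and 1502 (0.24) on one probe set and was at -0.23 on the other. Ect2, the activator of RhoA at the division plane, was at 0.09. Prc1, which bundles microtubules between the separating chromosomes, was at -0.10 and 0.22 on its 2 probe sets.

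The chromosome and proliferation markers were near equality, all 3 a little higher. Top2a, the topoisomerase that untangles sister chromatids, read 2549 and 2864 (0.17), with its other measured probe set at 0.24. Mki67, which encodes the proliferation marker Ki-67, read 5108 and 5365 (0.07). Foxm1, a transcription factor of G2 and mitotic genes, read 397 and 444 (0.16), with other probe sets at 0.39 and -0.03. These markers differed by less than the SD of 0.31 to 0.39 between probe sets of a gene in their brightness classes.

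**Figure D3:**
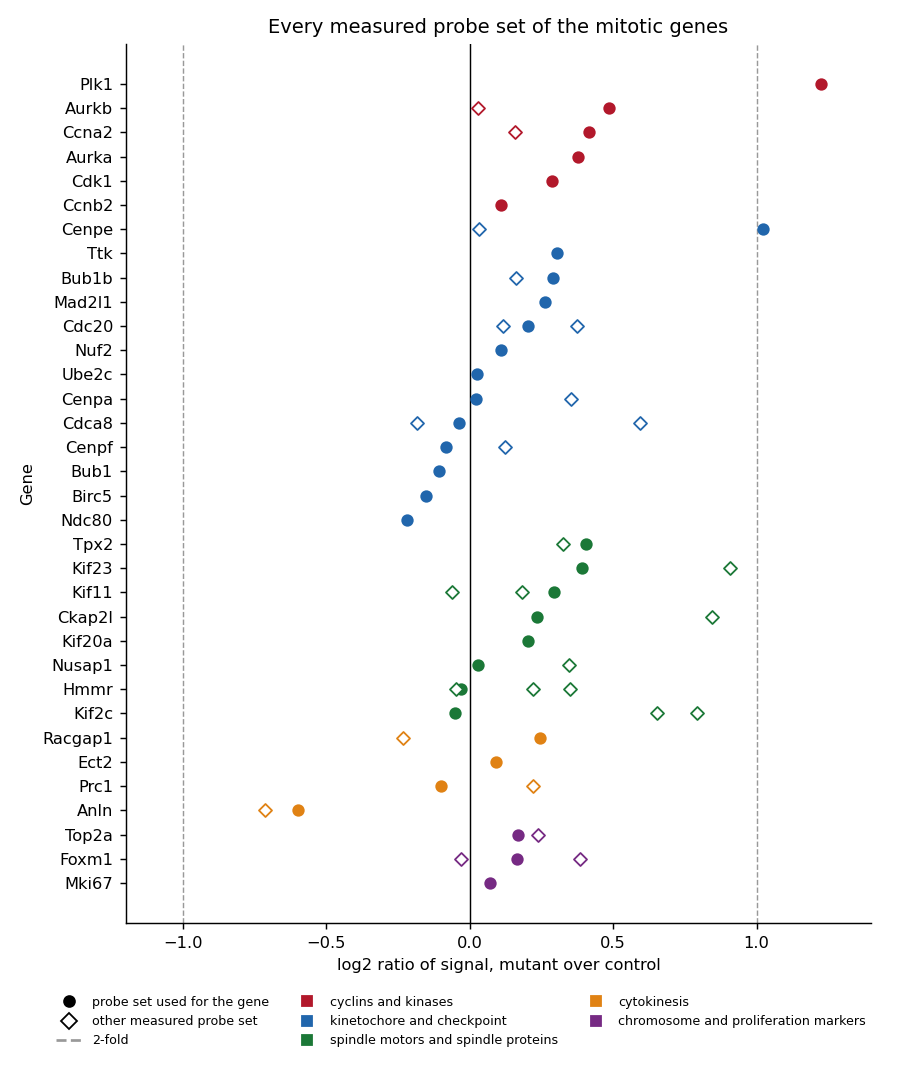
The log2 ratio of mutant over control for every measured probe set of the mitotic genes, with the probe set used for the gene as a filled circle and others as open diamonds. Dashed lines mark 2-fold. Plk1 and the brighter Cenpe probe set lie beyond the line, and the other Cenpe probe set lies at 0.03.

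Probe sets of a gene were read on the same RNA samples, so the spread between them says nothing of animals. It holds probe error and any difference between the transcripts or transcript ends that they match, and these were not separated. The 34 members had 61 measured probe sets, and 46 of these (75.4%) were higher in the mutant, against 49.9% of all measured single-gene probe sets. Of the 27 probe sets that the gene values do not use, 21 were higher, with a median log2 ratio of 0.22 and 0 at 2-fold. Several measured probe sets were available for 20 members. In 12 of these all probe sets had the same sign, 11 higher and 1 lower, and in 8 they differed in sign. The 2 brightest probe sets shared a sign in 15 of the 20 members, against 56.8% of 5174 genes. The pooled SD between probe sets of a member was 0.29.

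The ratio of each member was also set against the spread between probe sets. Genes were placed in brightness classes by their mean signal, and the SD between probe sets was 0.39 from 200 to 1000 and 0.31 over 1000. The log2 ratio of 8 members was beyond the SD of its class. Of these, 7 were higher, namely Plk1, Cenpe, Aurkb, Ccna2, Tpx2, Kif23 and Aurka, and 1, Anln, was lower. Of all measured genes, 12.7% were higher and 15.1% lower beyond the same limits. In the brighter class 17 of 20 members were higher (median 0.20), where 52.3% of 4347 genes were. In the class from 200 to 1000, 8 of 14 were higher (median 0.10), where 48.3% of 4969 genes were.

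**Figure D4:**
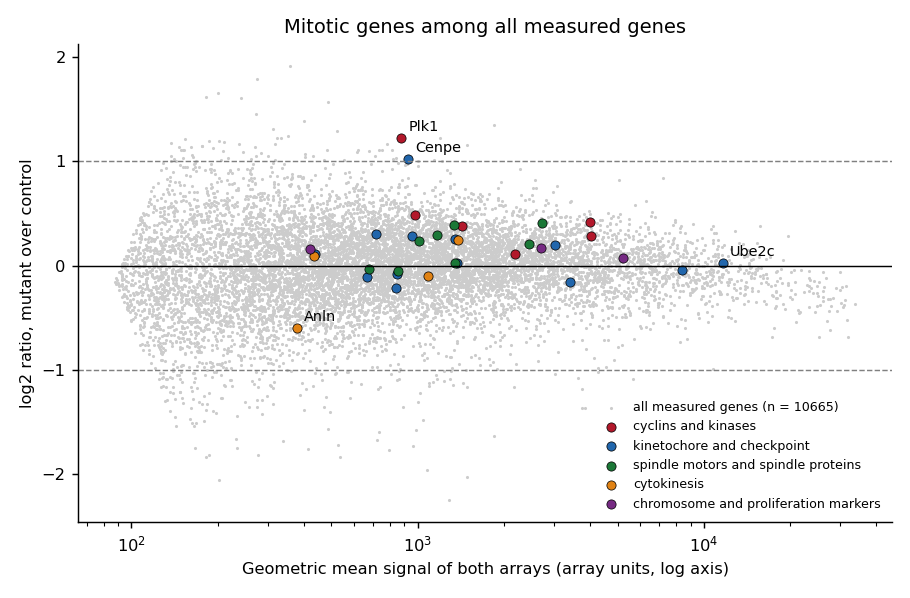
The log2 ratio of mutant over control against the geometric mean signal of both arrays (log axis) for all 10665 measured genes (grey) and the mitotic genes, coloured by role. Dashed lines mark 2-fold. The mitotic genes lie within the cloud of all genes, with Plk1 and Cenpe at its upper edge.

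Members with and without the promoter letters were set side by side as a description. The 23 measured members with a CHR match had a median log2 ratio of 0.11, with 16 higher, and the 6 without one a median of 0.07, with 4 higher. Both Plk1, the highest member, and Anln, the lowest, have a CHR match. The 22 members with CCAAT had a median of 0.18, with 17 higher, and the 7 without it a median of -0.05, with 3 higher. Anln is among those without CCAAT. The ranges of both pairs of groups overlapped widely.

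A longer list of 79 other genes of mitosis was also read. Of 72 measured genes, 44 (61.1%) were higher, with a median log2 ratio of 0.13 and 0 at 2-fold in either direction. The highest were Ccnf, which encodes cyclin F, at 0.98 (361 and 710), Troap, a spindle protein, at 0.89, Ska2, of the outer kinetochore, at 0.82, Cenpi, of the inner kinetochore, at 0.66 and Gtse1, a microtubule-binding protein, at 0.59. The lowest were Pimreg at -0.65, the cohesin protectors Sgo1 and Sgo2a, both at -0.50, the chromokinesin Kif4 at -0.48 and Pttg1, which encodes securin, at -0.47. Probe sets disagreed here too, with a second Troap probe set at -0.57, a second Sgo1 probe set at 0.43, a second Ska2 probe set at 0.17 and the 3 Pttg1 probe sets from -1.61 to 0.02.

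Genes of DNA replication and cell cycle inhibitors were read for comparison. Of 27 measured genes of DNA replication and S phase, 21 (77.8%) were higher, with a median log2 ratio of 0.17, the same to 2 decimals as for the mitotic genes. The list ran from -0.28 to 0.84, with 6 genes lower. Ccne1, a cyclin E gene of S phase entry, was near its top, reading 575 and 954 (0.73). Ccne2, the other cyclin E gene, read 254 and 237 (-0.10). Pcna, Mcm7 and Mcm6, the brightest of the list, were at 0.27, 0.02 and -0.28. Probe sets disagreed here too. The lower genes Mcm5, Mcm6 and Rrm1 had a second probe set that was higher, at 0.13, 0.21 and 0.32. The higher genes Prim1, Cdc45 and E2f1 had one that was lower, at -0.07, -0.30 and -0.36. Of 14 measured cell cycle inhibitors, 3 were higher and 11 lower, with a median of -0.10. The lowest was Gadd45b, a stress and growth arrest gene, which read 837 and 282 (-1.57). Next lowest was Cdkn1a, which encodes the Cdk inhibitor p21, at 722 and 451 (-0.68). Cdkn1c, the brightest of the list, read 24216 and 22390 (-0.11). The 3 higher genes were Rb1 (0.56), Rbl1 (0.21) and Cdkn1b (0.02). Rb1 read 99.0 on the control array, close to the floor of 91.3. The second probe sets of Rbl1 and Cdkn1b were lower, at -0.35 and -0.51, and that of Rbl2, a lower gene, was higher, at 0.29.

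**Figure D5:**
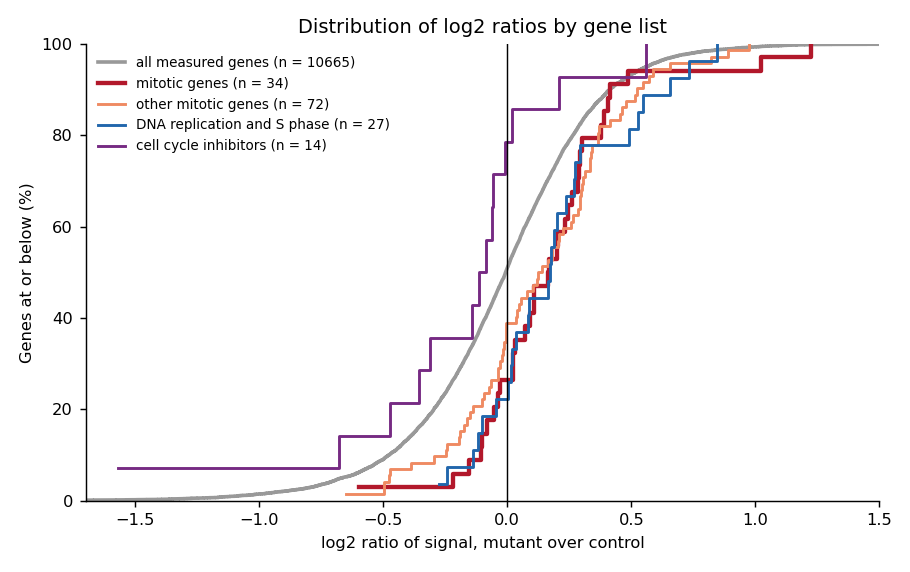
Share of genes (%) at or below each log2 ratio of mutant over control, for all measured genes, the mitotic genes, other mitotic genes, genes of DNA replication and S phase, and cell cycle inhibitors. The curves of the mitotic and replication lists lie to the right of all genes around their medians of 0.17, and that of the inhibitors lies to the left, at a median of -0.10.

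Markers of cell types differed between the same arrays. Of 10 measured epicardial markers, 10 were higher in the mutant (median 0.74), and the summed signal of the 12 listed was 5965 on the control array and 10146 on the mutant array. Of these, Msln lay under the floor on both arrays. Of 13 cushion mesenchyme markers, 0 were higher (median -0.73), and their summed signal was 67380 and 48455. Pan-endothelial markers had a median of 0.06, with 8 of 13 higher and summed signals of 72036 and 74518. Cardiomyocyte markers had a median of 0.05, with 7 of 12 higher and summed signals of 27356 and 30471. Erythroid markers, from cells that the Ter119 gate is meant to remove, were lower in 4 of 5 measured, with summed signals of 12060 and 8188. Most of that signal was the globin gene Hbb-y, at 9843 and 6606, so globin RNA was present on both arrays. For Gapdh, the array's check of RNA integrity, 3′ signal divided by 5′ signal came to 2.27 for control RNA and 1.64 for mutant RNA. For Actb, the other such check, it was 0.989 and 0.998. The part of each of these in the ratios of the mitotic genes was not tested.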

How the data were processed

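Each deposited value is the signal intensity of an Affymetrix probe set. The submitters' processing notes name MAS5. That method combines perfect-match and mismatch probes and scales each array by 1 factor; both arrays had a mean of 500.0 after trimming 2% at each end. The sources used here give no version or build. Of 45037 probe sets that are no array controls, 34945 named 1 gene in the platform annotation, 932 named several and 9160 were not listed; identifiers of 34754 probe sets matched the RefSeq gene table. Probe sets naming several genes or none were left out.

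Signals were floored at each array's median and put on the log2 scale with Python 3.11.15 and pandas 2.3.3. With 1 array per genotype no test was run, and genes were counted by a 2-fold rule. The counting steps were tested on simulated data in which the changed genes differed by more than 2-fold. That check does not cover differences as small as most of those given here. The log2 ratio is given for every measured member. Signals of both arrays are printed for members at 2-fold, for the extremes of each role and for some of the other members. Of other mitotic genes, the 5 highest and 5 lowest are named. Other genes named from marker and cell cycle lists serve as examples. The members, lists and rules were chosen with earlier results of these data known. Alternatives were median scaling, quantile normalization, loess with a span of 0.3, a floor at percentile 25 or 75, the array median as a pseudocount, the median over probe sets, unsuffixed probe sets, and folds of 1.5 and 3. The use of the next brightest probe set was added after seeing the data. The number of arrays limits the precision.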

Additional observations from a re-analysis of the deposited data

How the results depend on the processing

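The mitotic genes kept a positive median log2 ratio under every alternative run, from 0.13 with a pseudocount to 0.29 with unsuffixed probe sets only, where 26 members were left. The 3 scalings gave 0.15 to 0.16. Members higher in the mutant numbered 23 after quantile normalization and 24 after loess. Members at least 2-fold higher were 1, Plk1, after quantile normalization, loess, a pseudocount, the median over probe sets or the next brightest probe set, and 0 at a fold of 3. Plk1 has 1 probe set, so the median over probe sets and the next brightest probe set reuse its value and could not change it. The same holds for all 14 members with 1 measured probe set. Of the 20 members with a next brightest measured probe set, 0 were 2-fold higher on it. Lower members numbered 5 with the median over probe sets and 4 with unsuffixed probe sets, and 1 member was lower at a fold of 1.5. With unsuffixed probe sets the kinetochore and checkpoint median was 0.29, and the cytokinesis median was -0.60, which is Anln alone; this median was above 0 with the higher floor (0.07) and the median over probe sets (0.03). Kif23 stood at 0.88 after quantile normalization and 0.84 with a pseudocount, where its other probe set was the brighter. The median of other mitotic genes was 0.090 with a pseudocount and 0.085 with the median over probe sets. Of these genes, 1 was 2-fold lower with unsuffixed probe sets, and at a fold of 1.5, 5 were higher and 1 lower. The shares of all measured genes at a fold of 1.5 or under these alternatives were not counted. The counts of members and other mitotic genes given here thus have no share to be read against. Over the 8 alternatives of scaling, floor and probe set, 24 members had a value in each, and of these 19 had the same sign throughout, 17 higher and 2 lower (Bub1 and Ndc80). The other 10 lacked a value in at least 1 alternative, and 8 of them had the same sign wherever measured. The floor percentiles leave the ratio of a measured member unchanged, so they could not turn a sign. Median scaling lowered all ratios by the same amount, as for Cenpa from 0.023 to 0.007, which was too little to turn any sign. The median over probe sets could not turn a sign for members with 1 measured probe set. Neither could the unsuffixed probe sets for members whose value already came from one. All alternatives use the same 2 arrays. The cause of the shifts between settings was not tested.

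No paired analysis was possible because each genotype has 1 array.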
